A study of Mus musculus with 12 samples.

Results

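The genes described here are the mouse SLC25 family, chosen as every symbol of the nuclear RNA table made of Slc25a and a number. The rule found 47 genes among 46983 symbols (30546 with at least 1 count). All 47 had at least 1 count, and 42 passed the filter on low counts and were tested. The 5 that did not pass were Slc25a21, Slc25a31, Slc25a41, Slc25a48 and Slc25a54.

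SLC25 proteins are carriers of the inner mitochondrial membrane. They exchange nucleotides, phosphate, carboxylic acids, amino acids, acylcarnitines and cofactors between the cytosol and the mitochondrial matrix, and a few sit in the outer membrane or in peroxisomes. In heart muscle, where most ATP is made in mitochondria, the ADP/ATP carriers and the phosphate carrier bring in the substrates of ATP synthase and send ATP out to the contractile apparatus.

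RNA came from adult mouse heart nuclei selected for PCM1, a protein found around cardiomyocyte nuclei. The control group was Myh6-MCM mice given tamoxifen, 2 libraries, and the YAP5SA group was Yap5SA+/tg; Myh6-MCM mice given tamoxifen, 2 libraries. Both groups therefore carried the tamoxifen-inducible Cre driven by the promoter of Myh6, a heart muscle myosin gene, and both received tamoxifen. In YAP5SA, inhibitory serines of YAP, a Hippo pathway co-activator of transcription, are replaced by alanine, and the comparison asks how it alters nuclear transcripts of the adult cardiomyocyte. The labels do not say whether animals were pooled or whether each replicate was another animal. The p-values thus cover the spread between these libraries alone, which may be technical.

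Total counts ran from 7850661 to 15012122 per library, and a gene without counts could still be present at up to 3 counts, or 0.202 to 0.397 CPM (counts per 1000000, scaled by TMM), for counting error only. The labelled cell type was present: the summed level of 10 heart muscle markers was 32716 and 65179 CPM in control and 23036 and 24258 CPM in YAP5SA, and all 10 had a negative fold change (median log2 -1.09). The 8 macrophage markers summed to 469 and 319 CPM in control and 829 and 972 CPM in YAP5SA, the 7 endothelial markers to 1411 and 1000.2 CPM against 741 and 711 CPM. All 8 macrophage markers had a positive fold change (median log2 1.49), and all 7 endothelial markers had a negative one (median log2 -0.76). The 6 fibroblast markers summed to 4230 and 3044 CPM in control and 2829 and 3379 CPM in YAP5SA. Of these, 2 had a positive fold change (Lum the largest, log2 1.16) and 4 a negative one (median log2 -0.39). The 6 smooth muscle and pericyte markers summed to 1190 and 748 CPM in control and 1217 and 1411 CPM in YAP5SA. Among them 3 were positive (Acta2 the largest, log2 2.67) and 3 negative, the lowest at -1.15 (median log2 -0.098). The 5 adipocyte markers summed to 453 and 242 CPM in control and 139 and 148 CPM in YAP5SA, nearly all of it Fabp4, which endothelial cells also express. Of the others, Adipoq, Cidec and Plin1 were at or below 1.09 CPM in every library, and Lep was at 0 counts in each control library, against 15 and 17 counts in YAP5SA. Transcripts of the mitochondrial genome made up 0.370% and 0.223% of the counts in control and 0.166% and 0.172% in YAP5SA. The part of any of these in the results below was not tested. In bulk nuclear RNA, fewer nuclei of a type and less RNA per nucleus cannot be told apart.

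No carrier gene passed the test. Of the 42 tested members, 0 rose and 0 fell at an adjusted p under 0.05 (edgeR quasi-likelihood test, 2 against 2 libraries), where 3.12% of all 17715 tested genes rose and 0.999% fell (4.12% in either direction). At an unadjusted p under 0.05 there were 1 higher member, Slc25a24, and 5 lower members, Slc25a2, Slc25a4, Slc25a35, Slc25a42 and Slc25a47, beside 12.7% and 10.9% of all tested genes. DESeq2, another count test, called 1 member upward, Slc25a24, and 2 downward, Slc25a2 and Slc25a4 (5.72% and 2.82% of the genes it tested). With no filter on low counts, edgeR called Slc25a24 upward and 5 members downward, Slc25a2, Slc25a4, Slc25a20, Slc25a23 and Slc25a41 (5.65% and 5.53%).

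More members had a negative than a positive fold change, with 0 called. The fold change was positive for 13 members and negative for 29, and 54.3% of all tested genes had a negative one. The median log2 fold change was -0.26, beside -0.06 over all tested genes. The median difference between the control replicates (replicate 2 minus replicate 1) was -0.32 over the same members, beside -0.04 over all tested genes. The groups did not overlap for 5 members that were higher in both YAP5SA libraries and for 15 that were lower, where 28.1% and 28.3% of all tested genes did so. The summed counts of the 47 genes made up 0.237% and 0.246% of all counts in control and 0.188% and 0.202% in YAP5SA. That difference of -0.0467 percentage points had an exact two-sided permutation p of 0.333, the smallest that 2 against 2 libraries allow.

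The 2 control libraries differed more than the 2 YAP5SA libraries. Over the tested members the median absolute log2 difference between replicates was 0.48 in control and 0.16 in YAP5SA, close to the 0.42 and 0.17 of all tested genes. For 27 of the 42 members the control replicates lay further apart than the fold change between the groups, and 7 members differed over 2-fold between the control replicates against 0 between the YAP5SA replicates. Over all tested genes with counts in both replicates, the control replicates lay further apart than the fold change for 9295 of 17656, and 3203 of 17656 differed over 2-fold in control and 596 of 17698 in YAP5SA. Control replicate 1 was the higher of the pair for 28 members, beside 52.6% of all tested genes.

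**Figure D1:**
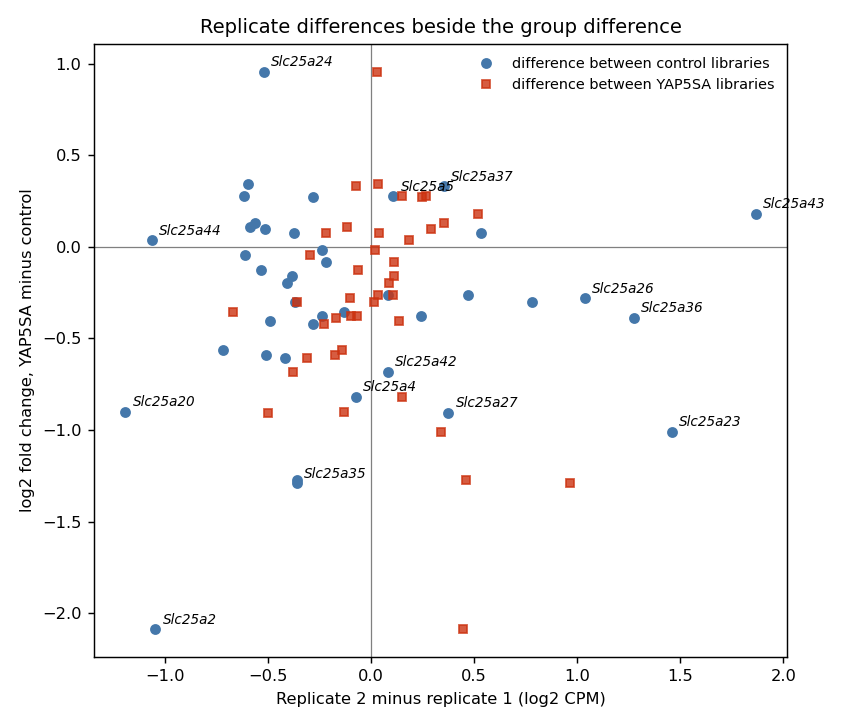
For 41 of the 42 tested Slc25 genes, the log2 difference between replicates (x axis; circles, control; squares, YAP5SA) against the log2 fold change between the groups (y axis). The circles spread far to both sides, as with Slc25a23 and Slc25a20, while most squares lie closer to 0.

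Leaving out 1 library changed the number of calls widely. Without control replicate 1, 3 members rose and 10 fell (18.8% and 17.4% of the genes tested in that fit), and without control replicate 2, 5 rose and 12 fell (19.7% and 18.6%). Of these, Slc25a24 rose and Slc25a2, Slc25a4 and Slc25a42 fell in both fits. Slc25a36 was also called in both, but with opposite signs (log2 fold change -0.88 without control replicate 1 and 0.42 without control replicate 2). The calls without control replicate 2 included Slc25a41, which did not pass the main filter. Without YAP5SA replicate 1 or without YAP5SA replicate 2, 0 members passed, with 1 higher and 1 lower at an unadjusted p under 0.05 in each fit, where 0.362% and 0.143% of genes rose and 0.0266% and 0% fell. These fits take the spread of the single remaining library to be that of the other group's pair. Over the main test and all 12 alternatives, the log2 fold change took both signs for 18 of the 42 members.

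Levels within the family were compared per kilobase of exon, with all annotated exons of a gene merged, so the order depends on those lengths. Slc25a4 led at 226 CPM per kb over the 4 libraries, followed by Slc25a5 at 96.5, Slc25a3 at 85.1 and, further down, Slc25a11 at 27.8. Slc25a13 (20.1), Slc25a39 (19.9), Slc25a12 (15.1), Slc25a36 (12.1), Slc25a24 (10.2), Slc25a51 (9.93), Slc25a20 (9.71) and Slc25a46 (9.29) completed the 12 highest. The order differed between the groups: in control Slc25a3 (92.8 CPM per kb) lay above Slc25a5 (87.3) and Slc25a2 (9.33) above Slc25a24 (6.90), and in YAP5SA Slc25a5 (105.6) lay above Slc25a3 (77.3). The order of Slc25a3 and Slc25a5 rests on their exon lengths, 5550 and 1646 bases. Without division by length, Slc25a3 lay above Slc25a5 in both groups (mean 515 against 144 CPM in control, 429 against 174 CPM in YAP5SA). Several neighbours in this order were not apart beyond their libraries: Slc25a5 ran from 84.0 to 111 CPM per kb and Slc25a3 from 76.4 to 108, and Slc25a13 (16.4 to 28.1) covered the range of Slc25a39 (18.6 to 22.0). Slc25a4 and Slc25a3 alone held 48.1% and 49.3% of the family's counts in control and 41.4% and 42.8% in YAP5SA.

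**Figure D2:**
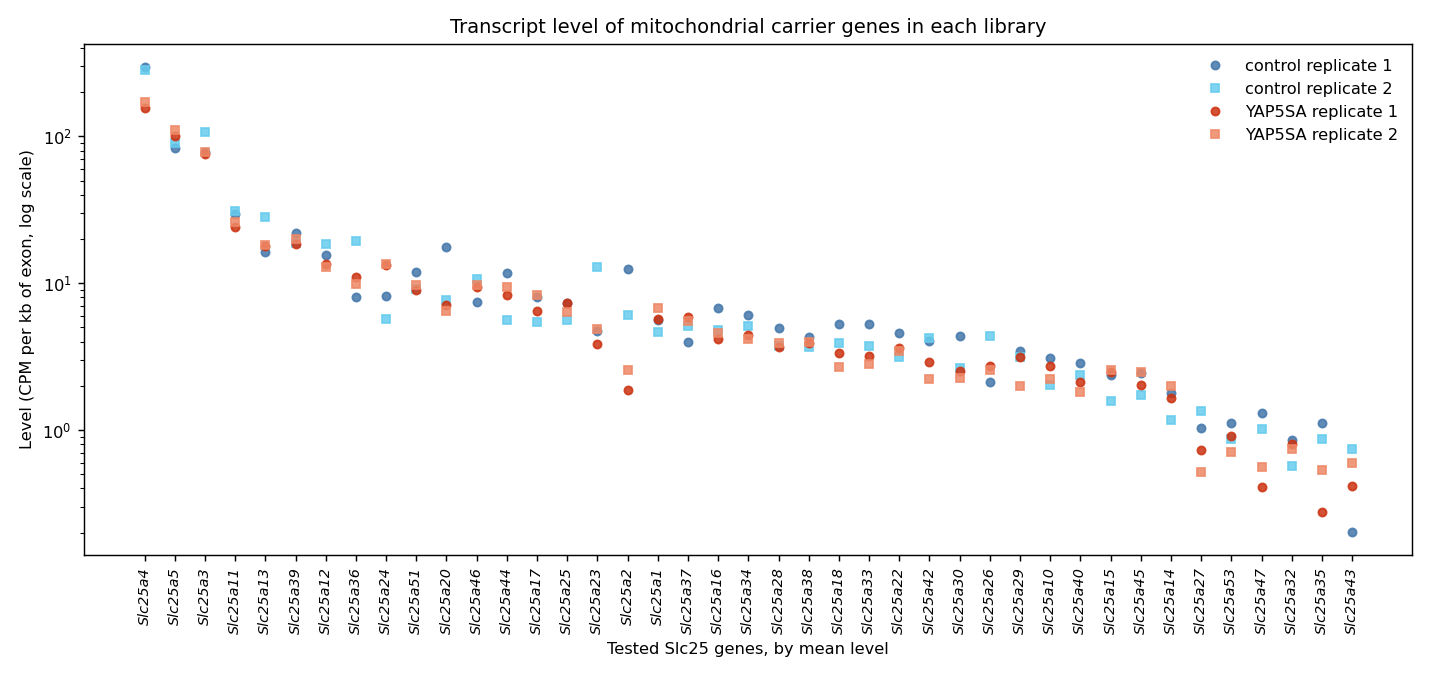
Level of 41 of the 42 tested Slc25 genes in CPM per kb of exon (log axis) in the 4 libraries, ordered by mean level. Slc25a4, Slc25a5 and Slc25a3 stand above the rest, and the YAP5SA libraries of Slc25a4 lie below both control libraries.

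The carriers that serve ATP synthase directly were the most abundant, and their differences had both signs. Slc25a4 encodes the ADP/ATP carrier typical of heart and skeletal muscle (chromosome 8, 46206797 to 46211284, mm10). Control replicates 1 and 2 measured 697 and 662 CPM, and YAP5SA replicates 1 and 2 measured 365 and 405 CPM. Both YAP5SA values lay well below both control values, and the control replicates differed little. Its log2 fold change was -0.82 (SE 0.203), a ratio of 1.76, and the adjusted p of 0.0901 missed the threshold. It ran from 8.26e-07 without control replicate 2 to 0.806 over the alternatives, with a log2 fold change between -0.87 and -0.72 in all of them.

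Slc25a5, the ADP/ATP carrier gene used in many proliferating cells (chromosome X, 36795651 to 36798807), measured 138 and 149 CPM in control and 165 and 183 CPM in YAP5SA. The groups did not overlap, and the log2 fold change of 0.27 (SE 0.167) did not pass (adjusted p = 0.373). Of the distinct 75-base words of its transcripts, a length chosen here, 19.8% also occur, read on either strand, in transcripts of 6 other genes. Most of these words are in Gm5560, so the counts of Slc25a5 are uncertain. Slc25a4 shares 0 such words. Slc25a31, the ADP/ATP carrier of male germ cells, had 7 and 6 counts in control and 10 and 7 in YAP5SA.

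Within a library, the share of Slc25a5 in the counts of Slc25a4 and Slc25a5 does not depend on how libraries are scaled. It was 16.6% (95% Wilson interval 15.8% to 17.3%) and 18.4% (17.4% to 19.4%) in the control libraries. In the YAP5SA libraries it was 31.06% (30.05% to 32.1%) and 31.1% (30.1% to 32.1%). The intervals, which cover counting error only, did not overlap between the groups. The means were 17.5% ± 1.28 and 31.1% ± 0.0299 (SD, n = 2), a difference of 13.6 percentage points with an exact permutation p of 0.333, the smallest possible here. Counted per exon length, the means were 23.2% and 39.2%. The difference ran from 12.7 to 14.5 percentage points when single libraries were left out.

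**Figure D3:**
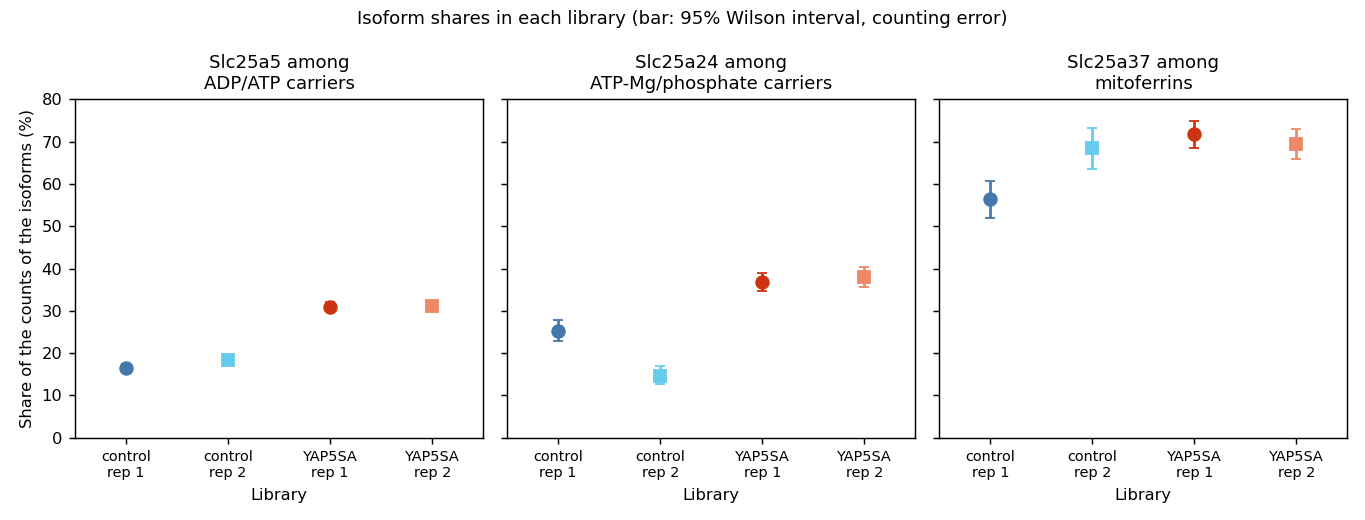
Share of Slc25a5 among the 3 ADP/ATP carrier genes, of Slc25a24 among Slc25a23, Slc25a24 and Slc25a25, and of Slc25a37 among the 2 mitoferrin genes, in percent of their summed counts in each library (bars, 95% Wilson intervals). Slc25a5 and Slc25a24 hold a larger share in both YAP5SA libraries than in either control library, while for Slc25a37 control replicate 2 lies with the YAP5SA libraries.

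The sequences before the start sites of these isoforms are shown with that of Slc25a24, the member with the largest positive fold change, because the ADP/ATP carrier share and Slc25a24 are described at length here, although none of these genes passed the test. Each holds the 250 bases before the start site given by RefSeq, GRCm38.p6, 5′ to 3′ on the gene's strand. Capitals mark CATTCC, which is the TEAD motif GGAATG read on the other strand, and the ETS motif CCGGAAG.
Slc25a4 (chr8:46211063-46211312, minus strand): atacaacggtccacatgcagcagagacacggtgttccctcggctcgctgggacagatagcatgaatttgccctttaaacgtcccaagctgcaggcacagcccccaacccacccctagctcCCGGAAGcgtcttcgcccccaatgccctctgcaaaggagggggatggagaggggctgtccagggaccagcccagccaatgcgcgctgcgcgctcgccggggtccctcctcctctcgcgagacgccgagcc
Slc25a5 (chrX:36795347-36795596, plus strand): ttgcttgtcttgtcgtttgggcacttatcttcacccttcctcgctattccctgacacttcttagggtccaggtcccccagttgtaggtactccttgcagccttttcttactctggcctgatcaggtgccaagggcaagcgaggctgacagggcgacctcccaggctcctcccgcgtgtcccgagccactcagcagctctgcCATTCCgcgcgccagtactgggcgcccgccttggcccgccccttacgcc
Slc25a24 (chr3:109122899-109123148, plus strand): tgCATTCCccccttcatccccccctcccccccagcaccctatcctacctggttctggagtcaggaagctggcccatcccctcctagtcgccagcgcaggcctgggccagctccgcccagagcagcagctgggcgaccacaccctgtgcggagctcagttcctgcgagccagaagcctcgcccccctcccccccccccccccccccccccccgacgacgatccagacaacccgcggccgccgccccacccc
The ETS match of Slc25a4 begins 130 bases before the RefSeq start site, and the TEAD matches of Slc25a5 and Slc25a24 begin 49 and 248 bases before theirs. In GENCODE M21 the span of Slc25a4 reaches 46211284, so most of its printed bases, the ETS match among them, lie within that span. RefSeq windows from 250 bases before to 50 after a start were at hand for 36 of the 47 members. Searched on both strands over all windows of a gene, GGAATG was present for 7 of the 36, beside 16.5% of all 26742 genes, and CCGGAAG for 7 of the 36, beside 9.999%. The estrogen-related receptor motif AAGGTCA was present for 1 of the 36, Slc25a34, beside 5.38% of all genes. The palindromic NRF1 motif was found for 0 of the 36, beside 1.08%. The 7 members with a TEAD match were Slc25a5, Slc25a16, Slc25a20, Slc25a23, Slc25a24, Slc25a25 and Slc25a36, which had fold changes of both signs. A match is a run of letters and not a binding site.

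Slc25a3, which encodes the phosphate carrier (chromosome 10, 91116574 to 91124059), measured 432 and 598 CPM in control and 424 and 434 CPM in YAP5SA. Control replicate 2 stood above the other 3 libraries, and the log2 fold change of -0.26 (SE 0.238) did not pass (adjusted p = 0.543). Without control replicate 2 it was 0.03, and without control replicate 1 it was -0.47 and passed (adjusted p = 0.00546). The 3 tested genes of this group had a median log2 fold change of -0.26, or 0.03 without control replicate 2, with 0 called.

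Calcium-regulated carriers exchange ATP-Mg for phosphate and set the size of the adenine nucleotide pool of the matrix. Slc25a24 (chromosome 3, 109123149 to 109168457) measured 27.9 and 19.4 CPM in control and 45.6 and 46.5 CPM in YAP5SA. Both YAP5SA libraries lay above both control libraries, by a ratio of 1.94 (log2 0.95, SE 0.223). The adjusted p was 0.0795, with a range from 7.88e-11 without control replicate 1 to 0.576 over the alternatives. Slc25a23, on the other hand, measured 25.0 and 68.7 CPM in control and 20.5 and 25.9 CPM in YAP5SA. Control replicate 2 alone was high, and the log2 fold change of -1.01 (SE 0.477, adjusted p = 0.273) was -0.07 without it. Slc25a25 overlapped between the groups, with 57.6 and 44.4 CPM in control and 57.8 and 49.7 CPM in YAP5SA.

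Shares among Slc25a23, Slc25a24 and Slc25a25 were computed after their values were seen. Slc25a24 held 25.2% and 14.7% of their counts in control and 36.8% and 38.1% in YAP5SA. Slc25a23 held 22.6% and 51.8% in control and 16.5% and 21.2% in YAP5SA, so that control replicate 1 lay near the YAP5SA libraries. Slc25a41, a member of this type without the calcium-binding part, had 19 counts in control replicate 1, 0 in control replicate 2 and 2 and 1 in YAP5SA. It lies 2.06 kb from Slc25a23 on chromosome 17. Slc25a54, which lies 6.46 kb from Slc25a24 on chromosome 3, had 1 and 0 counts in control and 1 and 0 in YAP5SA.

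**Figure D4:**
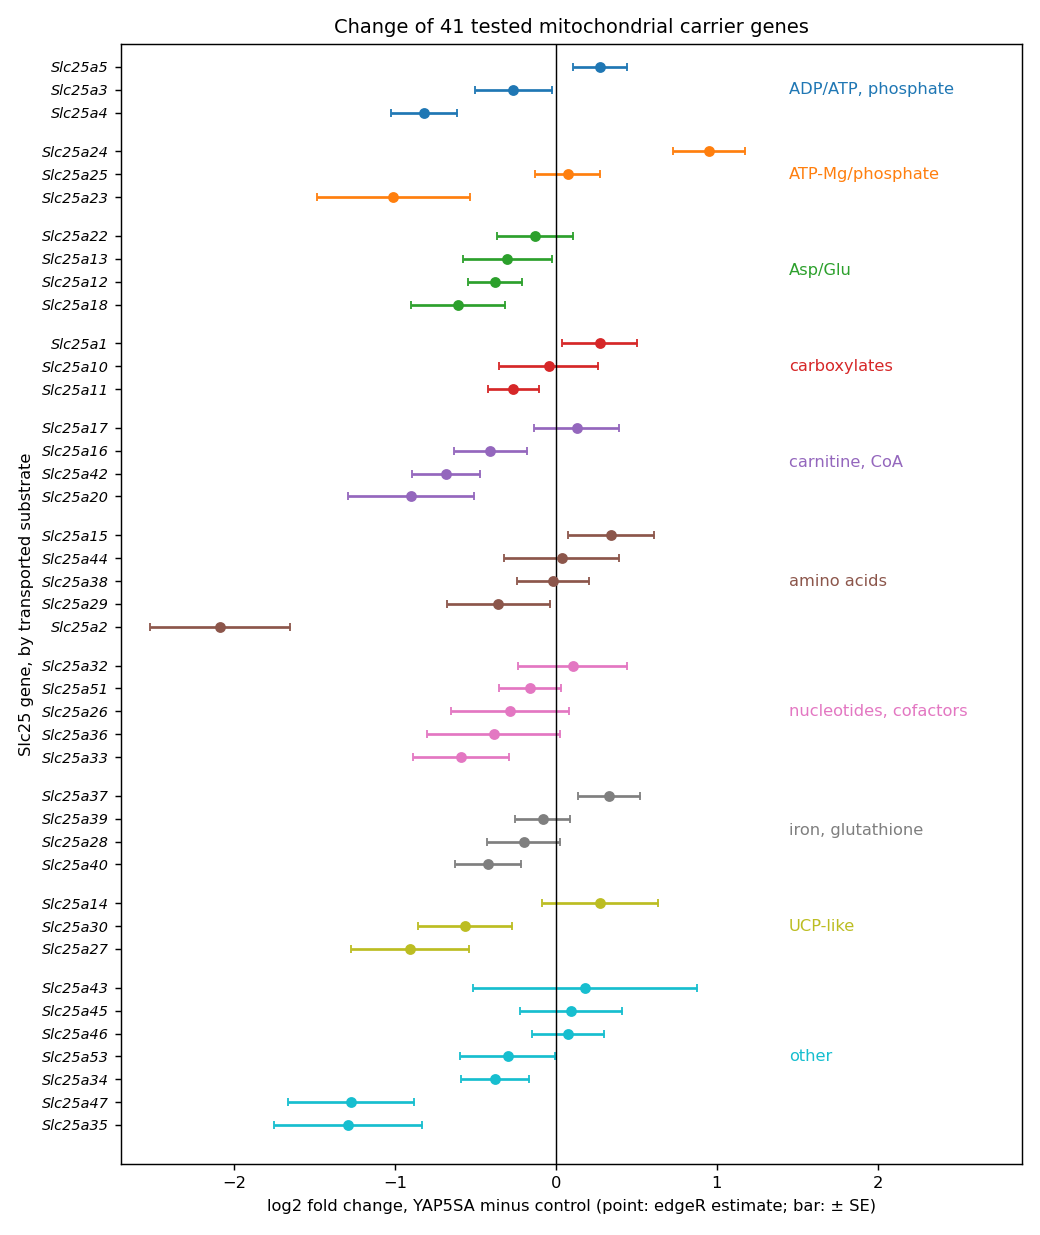
Log2 fold change (YAP5SA minus control; point, edgeR estimate; bar, ± SE) of 41 of the 42 tested Slc25 genes, grouped by the substrate they carry. Most points lie left of 0, Slc25a24 stands furthest to the right at 0.95 and Slc25a2 furthest to the left at -2.09, and 0 of them passed the threshold.

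Aspartate/glutamate carriers form part of the malate-aspartate shuttle, which brings reducing equivalents from glycolysis into the matrix. Slc25a12, the isoform typical of heart and brain, measured 115 and 136 CPM in control and 98.7 and 94.2 CPM in YAP5SA (log2 fold change -0.38, SE 0.169, adjusted p = 0.252). Slc25a13, the isoform prominent in liver, measured 62.1 and 107 CPM in control and 68.1 and 68.9 CPM in YAP5SA, so that the control libraries lay on both sides of the YAP5SA libraries. The share of Slc25a13 in their summed counts was 35.1% and 44.03% in control and 40.8% and 42.2% in YAP5SA (means 39.6% ± 6.32 and 41.5% ± 0.985, SD, n = 2; exact permutation p = 1). The glutamate carriers Slc25a18 and Slc25a22 had log2 fold changes of -0.61 and -0.13. All 4 genes of this group were on the negative side in the main test, with a median of -0.34, and 0 were called. Slc25a12 and Slc25a18 stayed negative over all alternatives. Slc25a13 turned to 0.18 without control replicate 2, and Slc25a22 also took both signs. The control libraries of Slc25a22 (27.4 and 18.9 CPM) enclosed both YAP5SA libraries (21.7 and 20.7 CPM).

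Carriers of carboxylic acids link the TCA cycle to the cytosol. Slc25a11, the oxoglutarate-malate carrier of the same shuttle, measured 62.5 and 66.2 CPM in control and 51.5 and 55.5 CPM in YAP5SA (log2 fold change -0.27, SE 0.158, adjusted p = 0.363). The groups did not overlap, but the difference was small. Slc25a1, which exports citrate for lipid synthesis, measured 12.2 and 10.05 CPM in control and 12.3 and 14.7 CPM in YAP5SA (log2 fold change 0.27, adjusted p = 0.519). The dicarboxylate carrier Slc25a10 was between 7.01 and 10.7 CPM in all 4 libraries, and Slc25a21, which carries oxoadipate, had 1 count in control replicate 1 and 0 in the others.

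Of 4 genes for carriers of acylcarnitines and coenzyme A, 0 passed the test and 3 had a negative fold change. Their median log2 fold change was -0.54, or -0.15 without control replicate 1. Slc25a20, the carnitine-acylcarnitine carrier needed for oxidation of long-chain fatty acids, measured 85.1 and 37.3 CPM in control and 34.4 and 31.4 CPM in YAP5SA. Control replicate 1 stood apart, and the log2 fold change was -0.90 (SE 0.391, adjusted p = 0.240) with it and -0.17 without it. The same library had the highest share of mitochondrial transcripts, and the part of this in the result was not tested. Slc25a42, a coenzyme A carrier, measured 24.1 and 25.5 CPM in control and 17.5 and 13.4 CPM in YAP5SA. Its control replicates lay close together, both YAP5SA values were lower, and the log2 fold change was -0.68 (SE 0.211, adjusted p = 0.136). Slc25a16, also tied to coenzyme A, had a log2 fold change of -0.41, and Slc25a17, a peroxisomal carrier, 0.13.

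Among amino acid carriers Slc25a2 had the largest fitted difference of the family in the main test. This single-exon gene on chromosome 18 (37637377 to 37638745) encodes an ornithine carrier. It had 190 and 63 counts in control and 38 and 46 in YAP5SA, or 17.2 and 8.33 CPM against 2.56 and 3.49 CPM. The groups did not overlap, although the control replicates differed by a ratio of 2.07. The log2 fold change was -2.09 (SE 0.437), and the adjusted p of 0.0643 missed the threshold, with a range from 6.71e-20 without control replicate 2 to 0.350. Without control replicate 1 the log2 fold change was -1.46, smaller in size than that of Slc25a23 in the same fit (-1.56). Slc25a15, the main ornithine carrier of the urea cycle, measured 13.4 and 8.86 CPM in control and 14.02 and 14.4 CPM in YAP5SA (log2 fold change 0.34, adjusted p = 0.482). The glycine carrier Slc25a38 was almost level, with a log2 fold change of -0.02, as was Slc25a44, a carrier of branched-chain amino acids, with 0.04. For Slc25a44 the control libraries were at 41.8 and 19.96 CPM and enclosed both YAP5SA libraries, and Slc25a29, a carrier of basic amino acids, had -0.36. The median of the 5 amino acid carriers was -0.02, and it was 0.12 without control replicate 1 and -0.36 without control replicate 2.

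Carriers of nucleotides and cofactors had 5 of 6 members on the negative side and a median of -0.22, with 0 called. Without control replicate 2 that median was 0.09. Slc25a36, a pyrimidine nucleotide carrier, measured 76.7 and 186 CPM in control and 106 and 94.2 CPM in YAP5SA. Its log2 fold change of -0.39 was -0.88 without control replicate 1 and turned to 0.42 without control replicate 2. Its partner in that role, Slc25a33, was at 9.96 and 7.01 CPM in control and 5.997 and 5.32 CPM in YAP5SA (log2 fold change -0.59, adjusted p = 0.298). Slc25a51, which brings NAD into mitochondria, measured 65.4 and 50.1 CPM in control and 49.7 and 53.7 CPM in YAP5SA. The carriers of S-adenosylmethionine (Slc25a26) and folate (Slc25a32) had log2 fold changes of -0.28 and 0.11. Slc25a26 measured 10.2 and 21.02 CPM in control and 13.2 and 12.3 CPM in YAP5SA. Its control libraries enclosed both YAP5SA libraries, and its log2 fold change was -0.71 without control replicate 1, which passed, and 0.35 without control replicate 2.

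Iron enters mitochondria through the mitoferrins Slc25a37 and Slc25a28, for heme and iron-sulfur cluster synthesis. Slc25a37 measured 24.0 and 30.7 CPM in control and 35.2 and 33.5 CPM in YAP5SA, higher in both YAP5SA libraries, by 0.33 on the log2 scale (SE 0.194, adjusted p = 0.355). Slc25a28 overlapped between the groups, at 18.6 and 14.0 CPM in control and 13.8 and 14.7 CPM in YAP5SA. Slc25a37 held 56.4% and 68.6% of their summed counts in control and 71.8% and 69.6% in YAP5SA, a share also computed after their values were seen. Slc25a39 and Slc25a40, which carry glutathione, had log2 fold changes of -0.08 and -0.42. Slc25a39 was nearly even across libraries, from 51.2 to 60.7 CPM.

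The members resembling uncoupling proteins, Slc25a14, Slc25a27 and Slc25a30, were low, at 20.01 CPM or less in every library. Slc25a27 measured 4.08 and 5.29 CPM in control and 2.898 and 2.05 CPM in YAP5SA (log2 fold change -0.91, SE 0.366, adjusted p = 0.214), and Slc25a30 had -0.56. Slc25a14 overlapped between the groups (0.28). Of the remaining members, Slc25a46, which acts in the outer membrane in shaping mitochondria, measured 40.1 and 58.0 CPM in control and 50.9 and 52.4 CPM in YAP5SA, with the YAP5SA libraries between the control libraries.

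Slc25a35 and Slc25a47 had the next largest negative fold changes after Slc25a2, at low levels. Slc25a35, whose substrate is not established, had 45 and 24 counts in control and 15 and 26 in YAP5SA (log2 fold change -1.29, SE 0.460, adjusted p = 0.175). Of its 75-base words, read on either strand, 22.3% also occur in Rangrf, whose exons overlap it on the other strand. Slc25a47, a carrier known from liver, had 43 and 23 counts in control and 18 and 22 in YAP5SA (log2 fold change -1.27, SE 0.392, adjusted p = 0.136). In GENCODE M21 its span begins 162 bases from Slc25a29 on the opposite strand of chromosome 12, while the RefSeq start window lies further into that span, at 108850879 to 108851178. Slc25a34, Slc25a53, Slc25a45 and Slc25a43 had log2 fold changes of -0.38, -0.30, 0.10 and 0.18. Slc25a43, which lies 18.4 kb from Slc25a5 on chromosome X, had 4 and 10 counts in control and 11 and 14 in YAP5SA. Slc25a48 had 6 and 1 counts in control and 0 in both YAP5SA libraries.

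Genes that work beside the carriers also had no calls. Of 4 tested relatives under other symbols (Ucp2, Ucp3, Mtch1 and Mtch2), 12 genes that import carriers into the inner membrane, 19 other inner membrane transporters, 4 outer membrane channel genes, 12 regulators of mitochondrial biogenesis and 19 enzymes that use the carried substrates, 0 rose and 0 fell, beside the 3.12% and 0.999% of all tested genes, shares so low that a count of 0 in lists of this size is close to the background. Their median log2 fold changes were 0.02, 0.09, 0.01, 0.01, -0.20 and -0.24. These depended on single control libraries: without control replicate 1 and without control replicate 2 the median was 0.57 and -0.23 for the relatives, -0.39 and 0.19 for the regulators, and -0.045 and -0.33 for the enzymes. The medians of the import genes, other transporters and channels also took both signs over the 4 fits that left out a library, between -0.063 and 0.22. The smallest adjusted p were 0.0790 for Pprc1, a co-activator related to PGC-1alpha (log2 fold change 0.81), 0.0887 for the calcium uniporter subunit Mcub, listed as Ccdc109b (1.05), 0.103 for Alas1, the first enzyme of heme synthesis (-0.65), and 0.110 for the uniporter pore Mcu (0.64). Cpt1b, the muscle enzyme that makes acylcarnitines for Slc25a20, measured 7.06 and 6.87 CPM in control and 3.71 and 2.89 CPM in YAP5SA (log2 fold change -1.08, adjusted p = 0.116). Mpc1, a subunit of the pyruvate carrier, had a log2 fold change of -0.87 (adjusted p = 0.119). Among the import genes and outer membrane channels, log2 fold changes stayed between -0.24 and 0.39.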

How the data were processed

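The sources are 4 nuclear RNA-seq libraries of adult mouse cardiomyocytes. The ATAC-seq and 4C-seq samples were not analysed here. The authors deposited raw counts per gene symbol in whole numbers. Per the labels' protocols, nuclei were selected by PCM1, libraries were made with a stranded kit after removal of ribosomal RNA, paired reads were mapped to mm10 with STAR, and DESeq2 was the authors' test. The sources used here do not give the counting program, strand setting, annotation or tool versions. Exons of 12 members overlap a gene on the other strand, among them Slc25a10, Slc25a11, Slc25a18, Slc25a23, Slc25a25, Slc25a33, Slc25a35, Slc25a37 and Slc25a46, and whether their reads were separated depends on the strand setting of the counting.

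Genes were filtered with filterByExpr of edgeR 4.0.16 (minimum count 10, 17715 genes kept), scaled by TMM and tested with the quasi-likelihood F test in R 4.3.3, 2 YAP5SA against 2 control libraries without a replicate block, with Benjamini-Hochberg adjustment over all tested genes at a threshold of 0.05. The standard error (SE) was taken as the absolute log2 fold change over the root of F. CPM uses TMM-scaled totals. Exon lengths, coordinates and 75-base words come from GENCODE M21 (GRCm38), in which all 47 members matched 1 gene. The fit was tested on simulated data with a smaller spread between libraries than here, equal in both groups, and with changes only in genes with higher counts. That run therefore does not measure how often changes were missed in these data. Alternatives were RLE size factors, library totals, a table without mitochondrial genes, DESeq2 1.42.0, limma-voom (limma 3.58.1), no filter, a minimum count of 30, a replicate block, and leaving out each library. Named members were any past the threshold, the 12 highest levels per kb and the 8 largest fold changes in each direction. Members and lists were chosen with earlier results of these data known. The values of 1 tested member are not reported here, and it is left out of the figures.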

Additional observations from a re-analysis of the deposited data

How the results depend on the processing

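Of the 42 tested members 0 passed in the main edgeR test, and the 12 alternatives differed mainly in how many of the family they called. With DESeq2 1 member was higher and 2 were lower, and with no filter on low counts 1 was higher and 5 were lower (of 47 tested). When single libraries were left out, the number higher ran from 0 to 5 and the number lower from 0 to 12, with every call in these fits coming from those without a control library. The fit without control replicate 2 tested 43 members, and its calls included Slc25a41, which did not pass the main filter. With a replicate block, 0 were higher and 0 lower, with 1 and 7 at an unadjusted p under 0.05. Same-numbered libraries did not deviate together (correlation of deviations -0.0917, control replicate 1 with YAP5SA replicate 1). This value cannot tell whether they were prepared together. Over all genes the block called 321 higher (1.81%) and 112 lower (0.632%) in place of 553 and 177. The median of the family ran from -0.26 to -0.17 over the fits that left out a library.

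Among the 24 named members some signs turned when a library was left out, each given as the lowest and highest log2 fold change over those 4 fits: Slc25a3 from -0.47 to 0.027, Slc25a13 from -0.63 to 0.18, Slc25a36 from -0.88 to 0.42, Slc25a39 from -0.15 to 0.041, Slc25a51 from -0.30 to 0.053, Slc25a46 from -0.16 to 0.40, Slc25a43 from -0.55 to 1.32 and Slc25a17 from -0.083 to 0.45. The difference in the Slc25a13 share ran from -2.50 to 6.44 percentage points. The cause was not tested. The low depth of Slc25a43, Slc25a35, Slc25a47 and Slc25a27, under 50 counts in every library, limits their precision.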
